A study of Mus musculus with 1627 samples.

Results

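Areg-expressing muscle Tregs were taken as the cells sorted from injured muscle in which at least 1 UMI (unique molecular identifier, a tag that marks one captured mRNA molecule) of Areg was counted. They were selected on a measured value, their own Areg count, and 29.4% of the 1368 muscle cells met the rule, out of 1627 cells in all. The comparison cells were muscle cells with 0 Areg UMIs, paired 1 to 1 with members of the same library on their total UMIs, because a deeper cell has more chance to show any transcript.

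The study sorted single regulatory T cells (Tregs) from spleen and from skeletal muscle of male B6 Foxp3-Ires-Gfp mice, a reporter strain in which GFP marks cells that express Foxp3. The mice were 8 months old and every group, spleen included, came 4 days after cardiotoxin injury of muscle. Live TCRb+ CD4+ GFP+ cells were encapsulated by inDrops, which primes at the poly(A) tail and counts UMIs per gene. Muscle gave 2 libraries and spleen 1. Because no label ties a cell to a mouse, muscle and spleen were each treated as a single sample and nothing was tested, and the 2 muscle libraries show only how far a value repeats between libraries. All intervals are exact 95% intervals and cover counting error only.

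Amphiregulin, encoded by Areg, is a ligand of the EGF receptor. It is made as a membrane-anchored precursor and released by the protease Adam17. Tregs of injured muscle are known as a source of amphiregulin, which acts on muscle progenitor cells during repair, and the alarmin IL-33, through its receptor ST2 (Il1rl1), is a known inducer of it. In other cells Areg is known as a target of the cAMP-responsive factor CREB, which binds the cAMP response element (CRE).

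Areg lies on chromosome 5 at 91139599 to 91148432 (GRCm38, the assembly also called mm10, plus strand). It is a protein-coding gene that no other annotated gene overlaps. The 250 bases before the RefSeq start of Areg are shown with those of 3 genes that were higher in the same cells, because the Areg window holds a CRE and these 3 hold a CRE or NF-kB matches. Sequences come from RefSeq (GRCm38.p6) and run 5′ to 3′ on the gene's strand, with matched motifs in capitals. The Areg window occupies chromosome 5, 91139349 to 91139598, plus strand. The Ppp1r15a window occupies chromosome 7, 45526269 to 45526518, minus strand. The Cxcl10 window occupies chromosome 5, 92348890 to 92349139, minus strand. The Cxcl2 window occupies chromosome 5, 90903649 to 90903898, plus strand.
Areg: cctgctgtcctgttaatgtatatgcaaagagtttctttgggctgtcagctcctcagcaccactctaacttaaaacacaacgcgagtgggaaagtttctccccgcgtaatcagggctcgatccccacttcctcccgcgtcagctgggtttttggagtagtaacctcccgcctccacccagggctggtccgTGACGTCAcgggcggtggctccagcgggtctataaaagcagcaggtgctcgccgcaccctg
Ppp1r15a: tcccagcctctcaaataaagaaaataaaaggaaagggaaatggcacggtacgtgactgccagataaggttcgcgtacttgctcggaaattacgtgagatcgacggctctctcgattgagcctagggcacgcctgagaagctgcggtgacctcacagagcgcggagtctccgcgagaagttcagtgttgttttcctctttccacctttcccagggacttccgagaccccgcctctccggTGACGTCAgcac
Cxcl10: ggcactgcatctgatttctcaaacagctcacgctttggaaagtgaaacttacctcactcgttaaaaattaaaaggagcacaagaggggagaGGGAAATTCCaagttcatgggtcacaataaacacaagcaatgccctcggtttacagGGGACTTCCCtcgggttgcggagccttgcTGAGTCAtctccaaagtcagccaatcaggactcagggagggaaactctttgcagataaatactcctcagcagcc
Cxcl2: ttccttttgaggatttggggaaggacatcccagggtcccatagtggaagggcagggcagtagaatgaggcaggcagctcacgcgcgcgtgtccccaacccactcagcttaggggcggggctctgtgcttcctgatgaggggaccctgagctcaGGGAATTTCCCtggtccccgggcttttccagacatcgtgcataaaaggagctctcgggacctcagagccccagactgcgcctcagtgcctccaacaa
The motifs searched on both strands were the CRE palindrome TGACGTCA, the AP-1 site TGANTCA with C or G at its N, and the NF-kB consensus. The CRE begins 61 bases before the Areg start and 12 bases before the Ppp1r15a start. Cxcl10 holds 2 NF-kB matches and 1 AP-1 match, and Cxcl2 holds NF-kB matches that overlap each other. Among 32851 mouse promoter windows of that length, 1.55% held the CRE, 4.46% the AP-1 site and 3.9% the NF-kB consensus. Among the windows of genes tested here the shares were 2.51%, 3.08% and 5.09%. Of the 26 genes made up of Areg and the 25 called genes described below, 20 had an entry. Nfkbiz and Cd83 were among those without one. The CRE was found in 1 of 12 windows of the higher genes and 0 of 7 of the lower genes, and the AP-1 site in 1 of 12 and 1 of 7. NF-kB matches were found in 3 of 12 windows of the higher genes and in 3 of 7 of the lower genes, so the NF-kB match did not separate the directions. A match is a run of letters and no evidence of binding.

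Areg UMIs were found in 30.1% of the cells of muscle library 1 (26.7 to 33.7) and 28.7% of those of muscle library 2 (25.3 to 32.2). In spleen the share was 16.2% (42 cells, 11.9 to 21.3), below both muscle libraries although spleen cells were deeper, with a median of 3541 UMIs against 1976 and 2487.5. After each cell was thinned to 1000 UMIs, the shares were 22.7%, 18.05% and 8.11%, which left out 26, 7 and 0 shallower cells. The level over all cells was 376.3 CPM (UMIs of the gene per 1000000 UMIs) in library 1 (346.2 to 408.3), 308.4 in library 2 (284.01 to 334.3) and 236.1 in spleen (206.7 to 268.5). No cell type that should lack Areg was sorted, so the share that free RNA would give could not be measured.

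Most members carried few copies. In library 1, 85 members had 1 Areg UMI, 45 had 2 and 73 had 3 or more, and in library 2 the numbers were 75, 44 and 80. In spleen 15 had 1, 6 had 2 and 21 had 3 or more. The highest cell held 21, 26 and 46 UMIs in library 1, library 2 and spleen. The mean per positive cell was 2.84, 2.97 and 5.52 UMIs and the median 2, 2 and 2.5. Spleen members were also deeper (median 3819 UMIs against 2159 and 2871), and per UMI the members compared stood closer, at 1129 CPM in library 1, 952 in library 2 and 1288 in spleen. The top 21 positive cells held 33.8% of Areg UMIs in library 1, the top 20 held 31.6% in library 2 and the top 5 held 50% in spleen. The cells just inside the rule, those with 1 UMI, are a large group that depth can move across the line. With cells divided into 4 classes of depth, the positive share went from 24.3% in the shallowest to 40.8% in the deepest class of library 1 and from 18.97% to 41.95% in library 2.

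**Figure D1:**
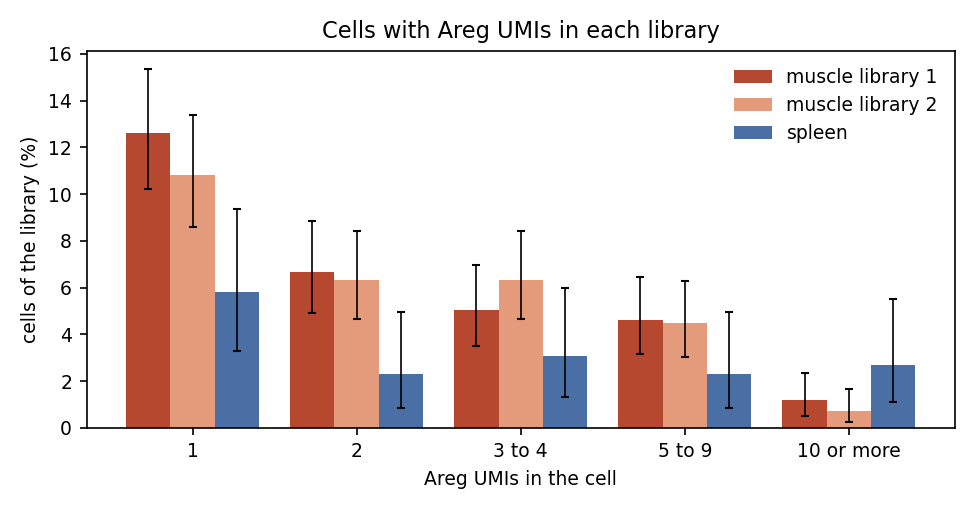
Percent of the cells of each library (bars, with exact 95% binomial intervals) against the number of Areg UMIs in the cell. Cells with 1 UMI make up 12.6% of library 1, 10.8% of library 2 and 5.79% of spleen, while cells with 10 or more make up 1.19%, 0.72% and 2.70%.

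The members carried the defining transcripts of Tregs. Foxp3, the lineage factor, was at 508.1 CPM in members and 627.3 in matched cells of library 1, and at 494.5 against 570.5 in library 2, a ratio of 0.81 (0.68 to 0.96) and 0.87 (0.74 to 1.01). Il2ra, the high-affinity IL-2 receptor chain, was at 990.04 against 1034 and 870 against 749.4. Markers of mast cells, basophils and eosinophils, which are other sources of Areg, were almost absent. Of 14 mast cell, basophil and eosinophil markers, 13 were at 0 in the members, and the list summed to 6 UMIs in members and 5 in matched cells of library 1 and to 1 and 1 in library 2. Neutrophil markers summed to 6 UMIs in members and 11 in matched cells of library 1, and to 20 and 17 in library 2. The endothelial and epithelial list summed to 59 and 57 and to 54 and 53. The innate lymphoid cell genes Il5 and Il9 were at 0 in all 4 sums. The 8-gene list of that cell type took 298.1 CPM against 196.2 and 249.4 against 185.3, nearly all of it from Il1rl1, which Tregs also express.

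Matching left 3 members without a partner in library 1 and 0 in library 2. Median depth was 2123.5 UMIs in members and 2128.5 in partners of library 1, and 2871 in both groups of library 2. Ribosomal protein transcripts took 13.3% against 13.6% and 13.8% against 14.1% of UMIs. The spleen comparison held 42 members and 42 partners, which were less alike, with ribosomal shares of 18.5% against 22.3%. Median genes per cell in spleen were 1189.5 against 1081, so the spleen ratios given below are not fully like the muscle ones. Libraries 1 and 2 shared 11 cell barcodes, 1 of them between members of both, and library 1 and spleen shared 1.

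Genes were called higher or lower when their CPM (Areg left out of the totals) differed at least 1.5-fold in the same direction in both libraries. Of 3634 genes with at least 100 UMIs over the 4 sums, 38 were called higher (1.05%) and 48 lower (1.32%), while 63 passed 1.5-fold in opposite directions in the 2 libraries. The differences were few and small beside the spread between libraries. The calls lie mostly among genes with few counts, with a median of 155.5 UMIs for the higher and 136.5 for the lower genes. Among genes with at least 200 UMIs, 0.65% were called higher and 0.45% lower. With at least 1000 UMIs only Gadd45b, Ppp1r15a and Nfkbiz were called higher and 0 genes lower. Few of the genes tested reach 1000 UMIs, so that count alone does not show that higher calls are rarer there. In 24 of the 38 higher and 24 of the 48 lower genes, the counting interval excluded a ratio of 1 in both libraries. The calls were made on the same counts, so these intervals add no separate support. Whatever the size of the difference, the interval excluded 1 in both libraries for 63 tested genes on the higher side and 61 on the lower.

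**Figure D2:**
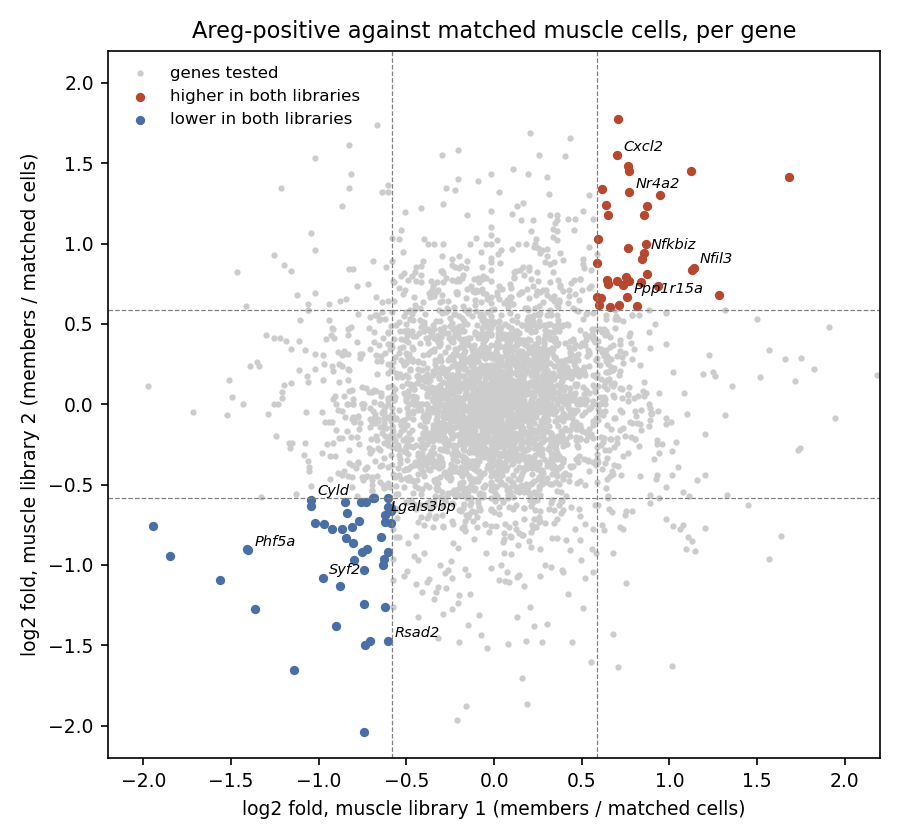
Log2 fold of members over matched cells in muscle library 1 (x axis) and muscle library 2 (y axis), 1 point per gene tested, with dashed lines at 1.5-fold. The 38 higher genes are red and the 48 lower genes blue, and 4 genes lie beyond the axes.

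The clearest difference was in 3 genes that the immediate response to activation and to NF-kB signalling is known to raise. Nfkbiz encodes IkB-zeta, a nuclear coactivator that selects a subset of NF-kB targets. It was at 770.3 CPM in members and 425 in matched cells of library 1, and at 504.2 against 263 in library 2. In spleen, positive cells held 1.77 times the level of their partners, which was 273.1. Each of the 3 libraries showed the same side, with ratios of 1.81 (1.53 to 2.16), 1.92 (1.58 to 2.33) and 1.77 (1.23 to 2.56).

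Gadd45b, a stress-response gene known to be induced by NF-kB, was at 1038.4 against 623 in library 1 and 1097 against 654 in library 2, with 677.3 against 485 in spleen. The ratios were 1.67 (1.44 to 1.93), 1.68 (1.48 to 1.90) and 1.40 (1.05 to 1.86). It was seen in 78.5% of members and 55.5% of matched cells in library 1 and in 78.9% and 60.3% in library 2, so many cells carried the difference.

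Cd83, a surface molecule of activated lymphocytes and dendritic cells, was at 355 against 185.9, 394.6 against 236.9 and, in spleen, 433 against 111.5. Its ratios were 1.91 (1.47 to 2.49), 1.67 (1.35 to 2.06) and 3.88 (2.35 to 6.71). Fewer cells carried it, 53 members against 32 matched cells in library 1 and 58 against 39 in library 2. These 3 genes, and the lower gene Syf2, kept their calls in all 12 alternatives that changed the cells compared or the scaling.

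**Figure D3:**
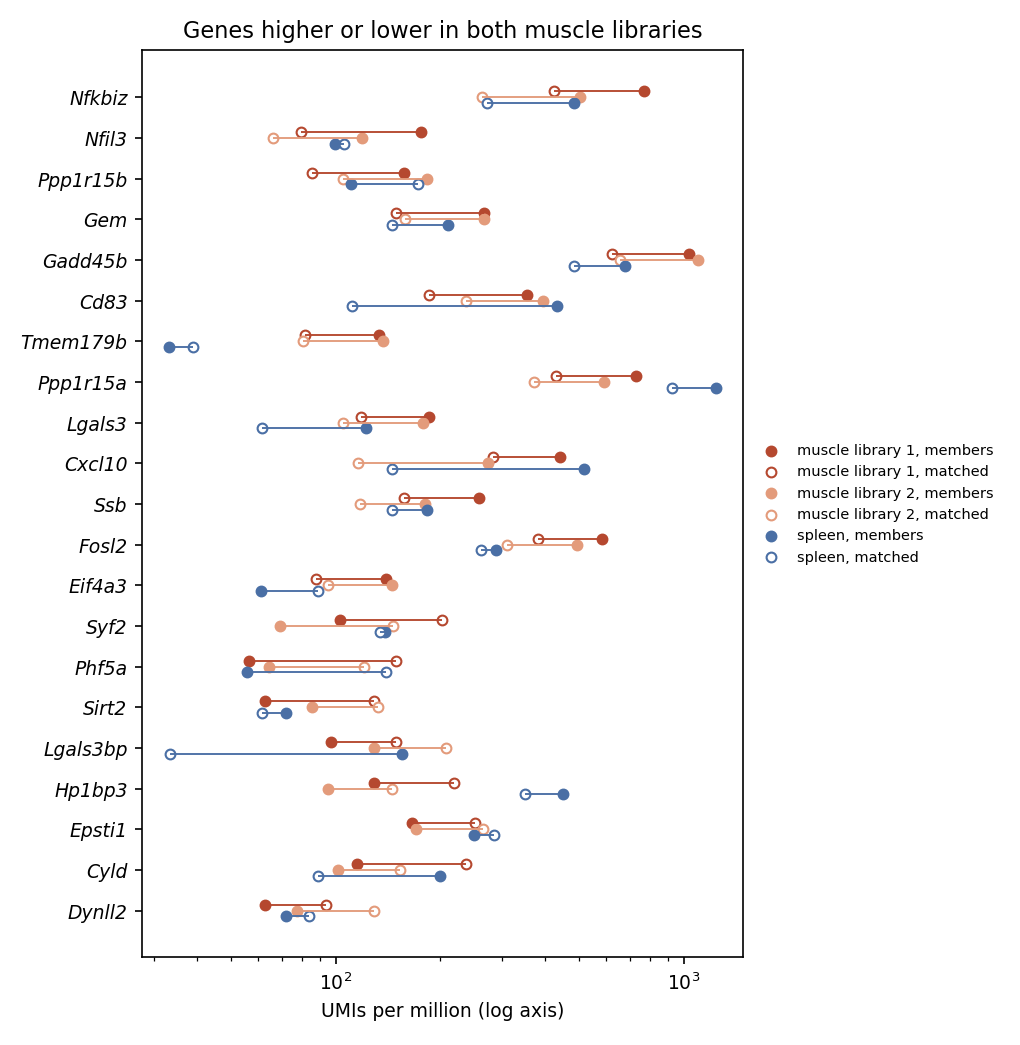
CPM (log axis) of the named genes in members (filled) and matched cells (open) of each library. Lines join the 2 groups, and Nfkbiz, Gadd45b and Cd83 lie to the right in members in all 3 libraries.

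The other named higher genes include regulators of stress signalling and of transcription. Nfil3, a bZIP repressor, was at 175.4 against 79.7 and 119.2 against 66.1. Ppp1r15b and Ppp1r15a encode subunits that direct dephosphorylation of the translation factor eIF2alpha. Ppp1r15b was at 157.3 against 85.8 and 183.6 against 104.8. Ppp1r15a was at 730 against 431.1 and 589.5 against 370.7. Fosl2, an AP-1 subunit, was at 583 against 382 and 492.9 against 311.05. Nr4a2, an orphan nuclear receptor that activation induces, was at 90.7 against 53.1 and 120.8 against 48.3. Gem, a small GTP-binding protein, was at 266 against 149.2 and 267.4 against 157.9. Ratios ranged from 1.53 to 2.50 in the muscle libraries, and the groups were on the same side in both libraries by the rule that chose them.

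Secreted and surface products form the second set. Cxcl10, an interferon-inducible chemokine, was at 441.6 against 284.01 and 274 against 116.04, and at 516 against 145 in spleen. Its UMIs came from 37 and 33 members, with 41% and 37% in the 3 highest cells, so few cells set its level. Cxcl2, a neutrophil-attracting chemokine, was at 66.5 against 40.9 and 136.9 against 46.7. Its ratio was 1.63 in library 1 (0.91 to 2.99, which includes 1) and 2.93 in library 2 (1.90 to 4.63). Lgals3 (galectin-3) was at 185.5 against 118.5 and 178.8 against 104.8. Metrnl, a secreted protein known for a role in muscle regeneration, was at 80.7 against 44.95 and 93.4 against 49.96. The RNA-binding protein gene Ssb, the splicing-complex gene Eif4a3 and the less characterised Tmem179b complete the higher set, with ratios between 1.52 and 1.70.

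Syf2, a splicing factor, ranked first by the smaller of the 2 log2 folds among lower genes with at least 200 UMIs. It was at 103 against 202.3 in library 1 and 69.3 against 146.7 in library 2, with 139 against 133.8 in spleen. Phf5a, a component of the splicing factor SF3b, was at 56.5 against 149.2 and 64.4 against 120.9. Its mean log2 fold was further from no difference than that of Syf2 (-1.15 against -1.03), and its spleen ratio was 0.40 (0.17 to 0.86). Cyld, a deubiquitinase known to restrain NF-kB signalling, was at 114.9 against 237.02 and 101.48 against 153.1, and on the opposite side in spleen (199.9 against 89.2). The remaining lower genes were Sirt2, a deacetylase (62.5 against 129 and 85.4 against 132.2), Lgals3bp, Hp1bp3, Epsti1 and Dynll2, with ratios from 0.49 to 0.67.

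The 25 called genes named here did not hold equally well. Calls were lost most often when members needed at least 2 Areg UMIs or cells were thinned (15 genes each, the latter with fewer UMIs), when matching was dropped or replaced by weights over depth classes (14 each), and when pairs were drawn in another order (11). Scaling by DESeq2 size factors or by totals without ribosomal protein genes cost 0 calls. Of the 25 genes, 13 kept the call in at least 9 of the 12 alternatives. Ppp1r15a, Cxcl10, Metrnl and Cxcl2 kept it in 8. Tmem179b, Ssb, Eif4a3, Sirt2, Lgals3bp, Epsti1, Dynll2 and Rsad2 kept it in 7 or fewer.

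Genes of the NF-kB pathway as a list were tilted towards the members. The list, like the others, was chosen with earlier results of these data known. Of 14 measured genes, 1 was called higher (Nfkbiz) and 0 lower, while 1.05% of all genes tested were called higher. In both libraries 10 were above a ratio of 1 and 0 were below, against 26.1% and 27.5% of all genes tested. The median log2 fold was 0.32, with -0.003 over all genes. Inhibitors and other members were mixed in that order. Rela, a DNA-binding subunit, was at 92.8 against 71.5 and 93.4 against 56.4. Nfkbid, a nuclear IkB protein, was at 703.7 against 427.04 and 731 against 564.1, and Nfkbia, the classical inhibitor, was at 3960 against 3106 and 3684 against 3025. Tnfaip3 (A20), which ends NF-kB signalling, was at 1498 against 1230 and 1554 against 1212. Traf1, a TNF receptor adaptor and known NF-kB target, was at 330.7 against 225 and 393.02 against 290.1. Relb was at 74.6 against 22.5 in library 1 but 59.6 against 72.5 in library 2. The inhibitor gene Nfkbib also lay on opposite sides, at 98.8 against 87.9 and 74.1 against 116.04.

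**Figure D4:**
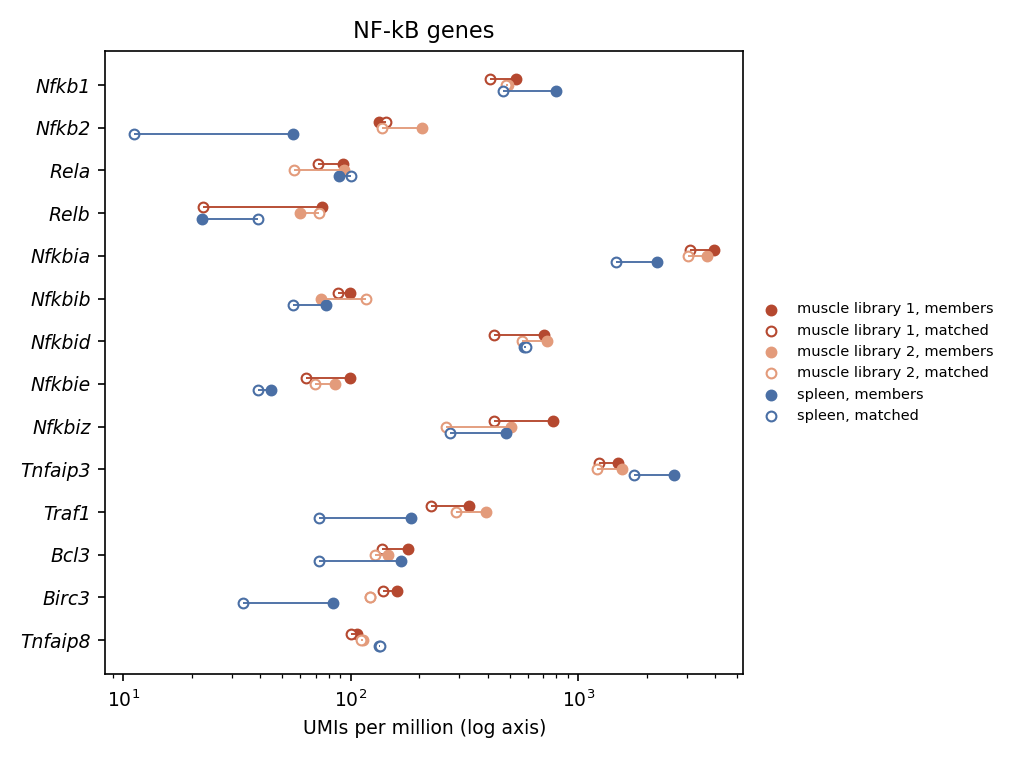
CPM (log axis) of the 14 measured NF-kB genes in members (filled) and matched cells (open) of each library. Nfkbiz and Nfkbid are to the right in members of both muscle libraries, and Relb is so only in library 1.

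Immediate early genes, which activation and tissue dissociation both raise, did not move together. Of 20 measured, 3 were called higher (Fosl2, Nr4a2, Ppp1r15a) and 0 lower. In both libraries 11 were above 1 and 6 below, and the median log2 fold was 0.17. All genes tested gave 1.05% called higher, with 26.1% above and 27.5% below 1 in both libraries. That median was 0.32 with at least 2 Areg UMIs per member, 0.26 without library 2 and 0.09 with unmatched cells. Those above included Nr4a1 (2131 against 1375 and 1822 against 1351), Junb (3456 against 2881 and 3539 against 2924) and Ier2 (594.8 against 476 and 610 against 406.1). Those below were Fos, Fosb, Jun, Egr1, Klf4 and Klf6. Egr1, a zinc-finger factor, was at 145 against 216.6 and 77.3 against 185.3, and Klf6 at 335 against 535 and 280.3 against 415.8. In spleen the order was opposite for all 6, with Egr1 at 249.8 against 72.5. The summed list took 1.475% of UMIs in members and 1.238% in matched cells of library 1, and 1.355% against 1.202% in library 2, and its part in the higher NF-kB genes was not tested.

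Of the 14 measured cAMP and CREB genes, 1 was called higher (Nr4a2) and 0 lower. In both libraries 5 were above and 5 below a ratio of 1. Among all genes tested 1.05% were called higher, 26.1% were above and 27.5% below in both. Crem, which encodes the inducible CRE-binding repressor, was at 675 against 610.9 and 657 against 649.5. Sik1, another CREB target, was at 62.5 against 38.8 and 72.5 against 48.3.

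Transcripts of Il1rl1 (ST2) and Klrg1 were seen in a larger share of members than of matched cells. Il1rl1 was at 286.3 against 184 and 238 against 174.1 CPM, ratios of 1.56 (1.19 to 2.05) and 1.37 (1.06 to 1.77), which misses the rule in library 2. After thinning to 1000 UMIs it was seen in 19.9% of members (14.5 to 26.2) and 13.3% of matched cells (8.9 to 18.8) in library 1. In library 2 the shares were 16.2% (11.3 to 22.04) against 10.1% (6.3 to 15.2), so the intervals overlap in both. Without thinning the shares were 32% against 21% and 31.2% against 22.1%, and their intervals overlap too. Klrg1, an inhibitory receptor of terminally differentiated lymphocytes, was at 784.4 against 635.5 and 1250 against 780. It was seen in 37.2% of thinned members against 25.0% in library 1 and 49.5% against 31.3% in library 2; spleen members and partners were at 26.2% and 7.14%. Unthinned Klrg1 shares were 50% against 36.5% and 59.3% against 40.2%. The thinned Klrg1 intervals overlap in library 1 (30.5 to 44.4 against 19.1 to 31.7) and not in library 2 (42.3 to 56.7 against 24.9 to 38.3).

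Granzyme B, the cytotoxic granule protease, was at 2740 against 2223 and 2326 against 2005, but the thinned shares did not repeat an order, at 53.1% against 45.9% and 44.9% against 46.5%. Of 20 measured tissue Treg genes, 1 was called higher (Nfil3) and 0 lower, with 8 above and 3 below in both. For all genes tested 1.05% were called higher, 26.1% lay above in both and 27.5% below. Gata3 was at 565 against 492.4 and 537.98 against 301.4. Penk, encoding proenkephalin, was at 137.1 against 365.7 in library 1 and 285.1 against 186.95 in library 2, and Il10 at 137.1 against 91.9 and 98.3 against 151.5. Both lay on opposite sides in the 2 libraries.

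Suppressor molecules gave 0 calls in either direction among 14 measured genes. With 1.05% of all genes tested called higher and 1.32% lower, 0 calls in so short a list says little about its genes. Tnfrsf4 (OX40), a costimulatory receptor, was at 1651 against 1322 and 1922 against 1360, and Ikzf2, a Treg transcription factor, at 1061 against 891 and 991 against 836. Chemokine receptors, 9 measured, also gave 0 calls, and the same limit applies. In both libraries 0 were above and 5 below a ratio of 1, against 26.1% and 27.5% of all genes tested. Cxcr3, which binds Cxcl10, was at 76.6 against 118.5 and 111.1 against 159.6. Among 4 measured chemokine ligands 2 were called higher, Cxcl10 and Cxcl2, against 1.05% of all genes tested, but 4 genes are few.

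Of 19 interferon response genes measured, 1 was called lower (Rsad2, viperin, at 64.5 against 98.1 and 35.4 against 98.3) and 0 higher, and 10 were below and 3 above a ratio of 1 in both libraries. Over all genes tested 1.32% were called lower, 27.5% were below in both and 26.1% above in both. Their median log2 fold was -0.18, and it was 0.06 when members had at least 2 Areg UMIs. Ifi47 was at 274 against 400 and 325.4 against 428.7, and in spleen at 371.96 against 189.5. Cd3e, a chain of the T cell receptor complex, was at 190 against 279.9 and 196.51 against 269.1 without a call.

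Areg was the only EGF receptor ligand with appreciable counts in the 4 sums, which hold the Areg-positive cells by the rule. Over the 4 sums Hbegf gave 16 UMIs, Tgfa 13, Ereg 3 and Btc 3, and Epgn, Egf and Nrg1 gave 0. Hbegf had 7 UMIs in members and 1 in matched cells of library 1, and 8 and 0 in library 2. The sheddase gene Adam17 was at 68.56 against 59.3 and 70.9 against 100, and Adam10 at 117 against 98.1 and 53.2 against 48.3 CPM. The receptor genes Egfr, Erbb2, Erbb3 and Erbb4 gave 9, 1, 0 and 2 UMIs. In sums over cells, more positive cells and more transcript per cell cannot be told apart, except where shares of cells are given.

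For most of the genes named, levels kept no single order over cells with 0, 1, 2 and 3 or more Areg UMIs. Nfkbid was at 427.04, 583, 631.3 and 821.6 CPM in cells of library 1 with 0, 1, 2 and 3 or more Areg UMIs, and in library 2 it went from 564.1 with 0 and 635.4 with 1 to 813.3 with 3 or more, with cells at 2 between these. Id2, a repressor of E proteins, stepped from 707 to 784.4, 901 and 1051 and from 588 to 712.04, 817.1 and 927. Hspa8, a constitutive chaperone, stepped down from 1438 to 1397, 1383 and 1342 and from 1436 to 1284, 1115 and 1096. These 3 kept the same order in both libraries and were picked from the named genes for that reason. The library 1 ratio of Hspa8 in members to matched cells was 0.92 (0.82 to 1.02), an interval that includes 1. Classes of Areg UMIs were not matched to each other on depth. Their medians, from 0 to 3 or more, were 2128.5, 1976, 2113 and 2348 UMIs in library 1 and 2871, 2788, 3040.5 and 3006 in library 2. Nfkbiz was highest at 2 Areg UMIs in both, and cells with 1 UMI already stood above matched cells, at 666.7 against 425 and 387.6 against 262.7. The NF-kB list summed to 6608, 7942, 9061 and 9157 in library 1 and to 6677, 7950, 7659 and 8993 in library 2.

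**Figure D5:**
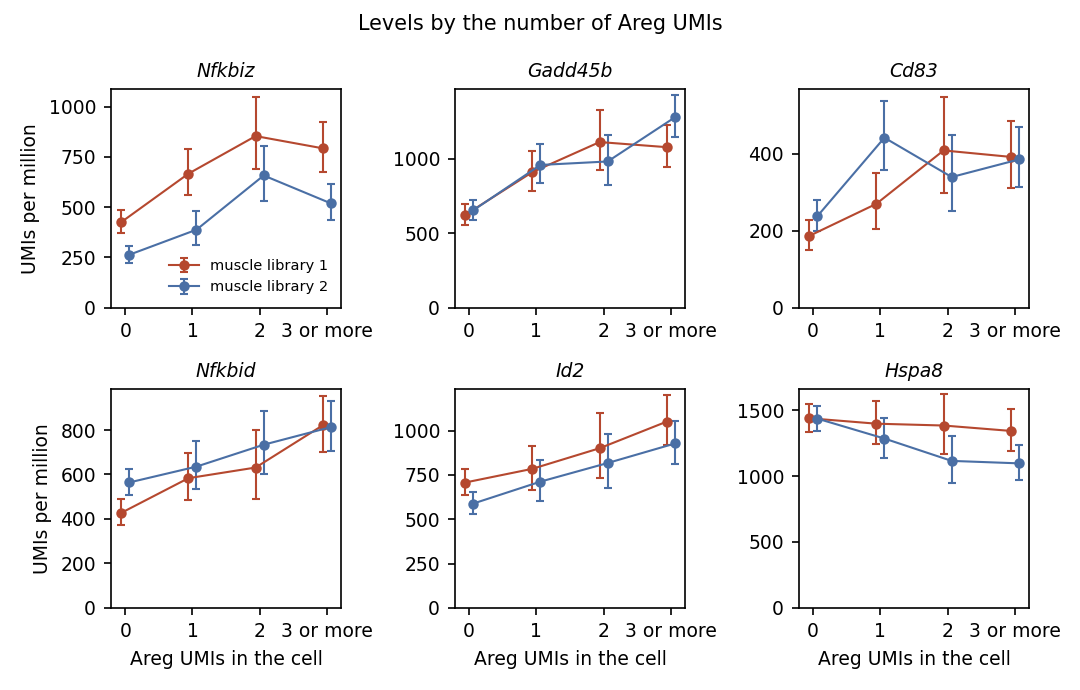
CPM of 6 genes (with exact 95% Poisson intervals) against the number of Areg UMIs in the cell, for both muscle libraries. The cells at 0 are the matched cells, and Nfkbid and Id2 step up and Hspa8 steps down in both libraries.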

How the data were processed

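Whole-number UMI counts per gene and cell, as deposited by the authors, were used for 1627 cells and 23725 genes. Per the submitters' processing notes, TopHat2 and SAMtools were used with mm10; no source used here gives the counting step or the cell filters. Cells were grouped by the tissue in the labels, and by library. Members and gene lists were chosen with earlier results of these data known. Library totals were 1533277, 1916496 and 982570 UMIs.

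Each member was paired with the unused Areg-0 cell of its library nearest in total UMIs, within 10%, from the deepest down; 3 or 2 partners left more than 5% of members unmatched, so 1 was used. Counts were summed per library and group and scaled to CPM (per 1000000 UMIs) without Areg. Where a sum was 0 a floor of 3 counts was used. With 1 sample per tissue no test was run and no doublet caller; cells above 3 times the median depth were left out as an alternative. Ratios have exact conditional binomial (Clopper-Pearson) intervals, levels exact Poisson and shares Clopper-Pearson ones. UMIs of 1 cell are not independent, so intervals are too narrow for cells. Named were up to 15 higher and 15 lower genes with at least 200 UMIs, ranked by the smaller of the 2 log2 folds, up to 4 genes per list, the EGF receptor ligands and check genes; ribosomal protein, numbered gene-model, Rik and receptor segment genes were not named. Other genes of those lists were added to show a list's members after their values were seen. Python scripts were tested on simulated data; edgeR and DESeq2 gave only scaling factors. Cell metadata files were not used. Of 18 alternatives, 16 were planned and 2 were added after seeing the data. The planned result under these alternatives was the count of called genes; it is given as a percent of the genes tested, a change made after the values were seen because some counts coincide with cell numbers in the labels and could not be printed, and the judgement of whether it moved still uses the counts. For the same reason the report gives group sizes as percentages: the members were 402 cells, 203 of 674 in muscle library 1 and 199 of 694 in muscle library 2, and spleen held 259 cells.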

Additional observations from a re-analysis of the deposited data

Results flagged for a closer look

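The 25 genes called in muscle and named here were compared with spleen where they had at least 30 UMIs there. Tmem179b, Eif4a3, Sirt2, Dynll2, Metrnl and Rsad2 had fewer and were not compared. Of the others, 7 lay in spleen on the side opposite to both muscle libraries. The difference between tissues was not tested. Lgals3bp, lower in members of muscle, had a log2 fold of 2.22 in spleen, from 28 UMIs in Areg-positive cells and 6 in partners. Cyld, also lower in muscle, was at 1.16 in spleen (36 and 16 UMIs), Hp1bp3 at 0.36 (81 and 63) and Syf2 at 0.05 (25 and 24). Ppp1r15b, higher in muscle, was at -0.64 in spleen (20 and 31 UMIs), Nr4a2 at -0.18 (46 and 52) and Nfil3 at -0.08 (18 and 19). The spleen intervals exclude a ratio of 1 for Lgals3bp (1.89 to 13.7) and Cyld (1.21 to 4.33). Those of Hp1bp3, Syf2, Ppp1r15b, Nr4a2 and Nfil3 include it.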

How the results depend on the processing

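Calls depended on how the compared cells were drawn. Against 1.05% of tested genes higher and 1.32% lower (38 and 48 genes), all unmatched cells gave 1.56% and 1.93% (77 and 95), so the counts grew more than the percentages because more genes were tested. Weights over depth classes gave 43 higher genes and 0.6% lower (22), and thinning 1.55% and 1.41% (22 and 20). A minimum of 50 UMIs gave 2.18% and 2.7%, 200 UMIs 0.65% and 0.45% (13 and 9), and 1 UMI 2.88% and 3.27%; at 2-fold 0.06% and 0.11% remained (2 and 4). Either library alone gave 7.65% to 8.67% higher and 8.2% to 8.72% lower. Of all calls 44.2% were higher, and 66.2% with weights. Matching from the lowest depth upwards kept 20 of the 38 and 28 of the 48 genes, and leaving out shared barcodes 34 and 41; both were chosen after seeing the data. The share of Areg-positive cells was 22.68%, 18.05% and 8.11% (library 1, library 2, spleen) with 1000 UMIs per cell, 23.76%, 22.2% and 10.98% with 1500, and 17.51%, 17.87% and 10.43% with at least 2 Areg UMIs. The NF-kB list median ranged from 0.281 to 0.373 over 18 alternatives, some of which, such as the 2-fold rule (0.32), could not move it. The tissue Treg median was -0.002 without library 1 and 0.275 without library 2, and the interferon median was 0.057 with at least 2 Areg UMIs; the immediate early median (0.167) was 0.322 there, 0.247 with equal weight per cell, 0.257 without library 2 and 0.09 with unmatched cells. The causes were not tested. No paired analysis was possible because the labels pair no samples across groups; the 1 to 1 matching of cells within a library is the comparison itself.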

Other observations

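Several genes stood far apart in 1 muscle library only. Dgat2, an enzyme of triglyceride synthesis, was at 112.9 against 18.4 CPM in library 1 and 82.1 against 98.3 in library 2. Stmn1, a microtubule regulator of dividing cells, was at 120.98 against 22.5 and 69.3 against 79.0, and Cxcr6, a chemokine receptor, at 94.8 against 34.7 and 74.1 against 114.4. In library 1 these were 56 against 9 UMIs of Dgat2 and 60 against 11 of Stmn1, and the 3 highest members held 32.1% and 50% of the members' UMIs.

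Hif1a, the oxygen-regulated transcription factor, was at 538.4 against 717 and 420 against 605.98 without a call, ratios of 0.75 (0.64 to 0.88) and 0.69 (0.59 to 0.81). Klf2, which keeps T cells in a circulating state, was at 114.9 against 171.6 and 112.8 against 175.7. Tff1, a secreted trefoil peptide, was at 96.8 against 38.8 and 96.6 against 64.5, from 12 and 13 members.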
